A study of Rattus norvegicus with 36 samples.

Results

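Kidney gene expression 2 h after mercuric chloride was compared with that 2 h after cisplatin in male rats of 6 to 8 weeks, each agent as a change from untreated normal rats. Rats of the mercuric chloride group (3 rats, 3 arrays) received 4 mg/kg under the skin, and rats of the cisplatin group (3 rats, 3 arrays) received 20 mg/kg into the peritoneal cavity. The controls were normal rats 1 to 3 (4 arrays) for mercuric chloride and normal rats 11 and 12 (3 arrays) for cisplatin, none of them injected. The comparison thus used 13 of the 36 arrays and 11 of the 31 rats of a study of acute renal failure, whose other groups were ischemic (some given alpha-MSH), sham-operated, volume-depleted or studied 8 h after mercuric chloride. The arrays were 1-colour CodeLink oligonucleotide arrays with 9911 probes, in 2 manufacturing lots, and each rat's RNA came from portions of its kidneys. There was 1 dose and 1 time per agent and no group injected with vehicle, so that agent, dose and route cannot be told apart.

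Mercuric chloride and cisplatin both injure the proximal tubule, which takes them up from the blood, and both bind sulfur in proteins and glutathione, while cisplatin also forms adducts with DNA. Cells that meet thiol-reactive metals are known to use the Nrf2 pathway (antioxidant enzymes, heme oxygenase), the heat shock response (chaperones) and the integrated stress response, in which the factor ATF4 switches on amino acid and tRNA charging genes. DNA damage is known to act through p53 and its targets, and immediate early genes answer many kinds of stimulus within minutes to hours.

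The labels do not tie arrays to lots. Of the probes, 47 had no value on any of the 6 arrays of cisplatin rats and normal rats 11 and 12 and had values on all 7 arrays of mercuric chloride rats and normal rats 1 to 3, and 13 probes were the other way round. None was missing throughout 1 group and present throughout its own controls. The 2 sets of normal rats differed in 581 of 9039 tested probes (6.43%; limma, Benjamini-Hochberg adjusted p under 0.05, the threshold used throughout), which bears on every difference below. Normal rats 11 and 12 were higher in 272 probes (3.01%) and lower in 309 (3.42%), and by gene they differed in 364 of 5943 (6.12%), higher in 159 (2.68%) and lower in 205 (3.45%). For the genes described one by one whose difference passed, the value is therefore given, where it moved by over 1.5 times, also directly. The direct value is mercuric chloride rats minus cisplatin rats, with no normal rats in it, and it holds any difference between the array lots. Its SE and adjusted p do depend on the normal rats. They come from a fit with all normal rats as 1 group, where the difference between the 2 sets enters the spread. Levels are multiples of the array median with a floor of 0.1, and changes and differences are log2 values ± SE.

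As a check of tissue, 36 of 37 measured proximal tubule genes had a value in all rats compared and none lay at the floor in every rat. Their summed level was 976 to 1459 in normal rats 1 to 3, 847 to 863 with mercuric chloride, 1020 to 1030 in normal rats 11 and 12 and 1001 to 1083 with cisplatin. Marker genes of leukocytes (23 measured), endothelium (14), glomerulus (9), fibroblasts and smooth muscle (15), red blood cells (4) and adrenal gland with fat (11) held 0 genes that differed between the agents, and none of these genes was at the floor throughout. The summed level of leukocyte genes was 99.0 to 109.9, 95.3 to 102.6, 71.3 to 73.4 and 78.2 to 102.2 in the same order of groups. The labels place the 2 h time before leukocyte infiltration. In whole kidney tissue, fewer cells of a type and less RNA per cell cannot be told apart.

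The difference between the agents passed in 88 of 9039 probes (0.974%), 34 higher with mercuric chloride (0.376%) and 54 higher with cisplatin (0.597%). Counted by gene, with the brightest probe standing for a gene, it passed in 63 of 5943 genes (1.06%), of which 18 were higher with mercuric chloride (0.303%) and 45 with cisplatin (0.757%). These shares are the background for the counts of differing genes in every list, counts of 0 included. Lists were chosen with earlier results of these data known, so that their counts are descriptions and not an independent test. The difference was at least 2-fold in 49 of the 63 genes, and its median over all genes was -0.12. Normal rat 1 and 2 arrays of other groups in the fit stood apart from the rest of their groups, and without them 259 probes passed (142 higher with mercuric chloride, 117 with cisplatin), 87 of the 88 among them. With quantile normalization 136 probes passed, 73 higher with mercuric chloride and 63 with cisplatin. Against its own controls, mercuric chloride changed 722 probes (7.99%), of which 289 rose (3.2%) and 433 fell (4.79%), and cisplatin 55 (0.608%), of which 51 rose (0.564%) and 4 fell (0.0443%). The excess of falls with mercuric chloride did not hold without normal rat 1, where 271 probes rose and 189 fell. Without all the arrays that stood apart, 520 rose and 503 fell. Without normal rat 2 the counts were 173 and 288, and without normal rat 3 they were 226 and 416. By gene, mercuric chloride changed 503 genes (8.46%), of which 175 rose (2.94%) and 328 fell (5.52%). Cisplatin changed 40 genes (0.673%), of which 37 rose (0.623%) and 3 fell (0.0505%). These counts of calls are not a comparison of the agents, and mercuric chloride had 3 control rats and cisplatin 2. The mean SD of log2 differences between rats of a group was 0.308 to 0.343 with mercuric chloride and 0.408 to 0.514 in its controls, and 0.392 to 0.439 with cisplatin and 0.273 in its controls. Of the 503 genes changed by mercuric chloride, 53 differed from cisplatin, and for the other 450 no difference was shown.

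**Figure D1:**
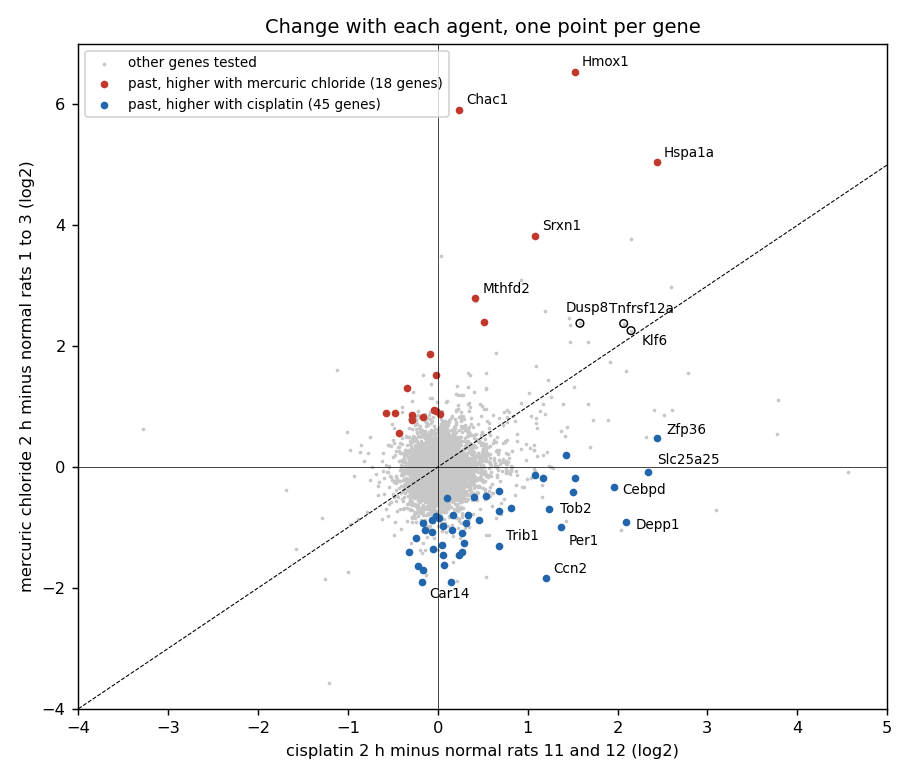
Change of each of 5943 genes with cisplatin (horizontal axis, log2) and with mercuric chloride (vertical axis, log2), each from the normal rats of its lot. Red and blue points are the 18 and 45 genes whose difference passed, open circles 3 genes that rose with both agents, and the dashed line marks equal change. Chac1 and Hmox1 lie far above the line, and most blue points lie below 0 on the mercuric chloride axis.

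The 63 genes fell into 3 patterns. All 18 genes that were higher with mercuric chloride had risen with it, and 2 of them, Hmox1 and Hspa1a, had risen with cisplatin as well. Of the 45 genes that were higher with cisplatin, 33 had fallen with mercuric chloride with no call for cisplatin, 10 had risen with cisplatin with no call for mercuric chloride, and 2, Per1 and Tob2, had fallen with mercuric chloride and risen with cisplatin. The mercuric chloride rats did not overlap the cisplatin rats in any of the 63 genes, a separation also seen in 42.3% of all genes.

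The controls weighed differently on the 3 patterns. Normal rats 11 and 12 were lower than normal rats 1 to 3 past the threshold in 13 of the 45 genes that were higher with cisplatin, where the median of that control difference was -0.39 (background 3.45%). This was so in 1 of the 18 genes that were higher with mercuric chloride (median -0.04). Compared directly, 17 of these 18 genes still passed, as did 29 of the 33 that had fallen with mercuric chloride and 7 of the 12 that had risen with cisplatin. The direct value differed from the difference of changes by over 1.5 times in 1, 14 and 7 of them respectively. Of all 9039 tested probes, 2202 passed in the direct comparison, which holds any difference between the lots. Per1, Tob2, Cebpd, Klf10, Tsc22d3, Arl4a and Ckm are the 7 genes that had risen with cisplatin and still passed, chosen here after their values were seen.

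**Figure D2:**
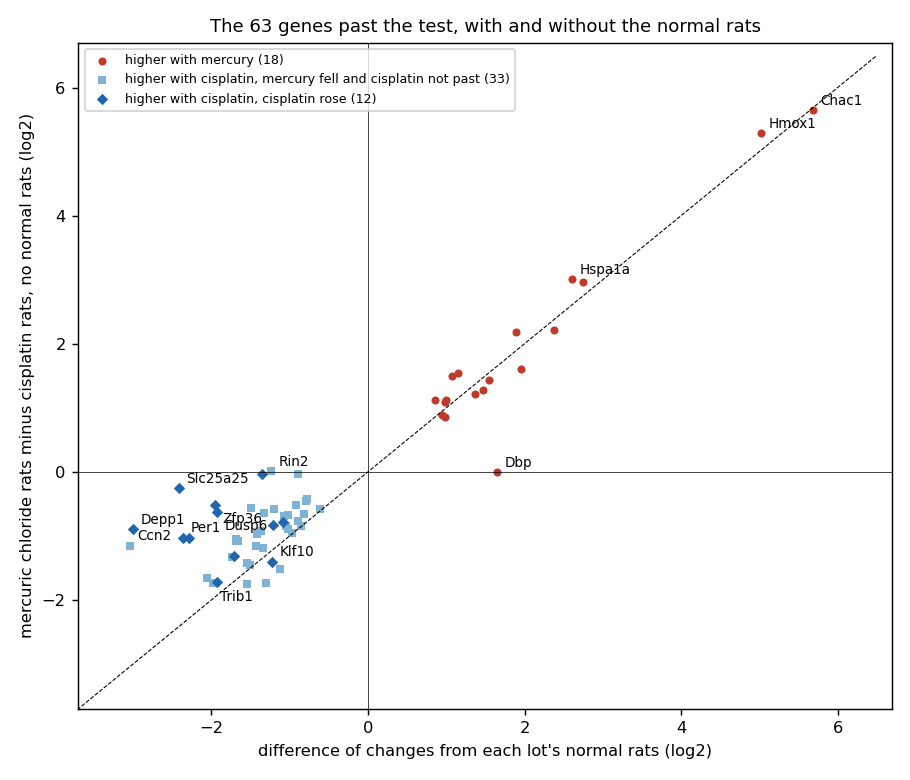
Each point is 1 of the 63 genes past the test: horizontal axis, difference of the 2 changes from normal rats (log2), vertical axis, mercuric chloride rats minus cisplatin rats with no normal rats (log2). On the dashed line the 2 values are equal, though the difference of changes still uses the normal rats. Red points lie near the line except for Dbp, and several dark blue points, with Slc25a25 and Depp1, lie well above it.

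The promoters of 3 of the genes of these groups that hold a short motif searched for are shown. Chac1 and Iars1 (higher with mercuric chloride) hold the C/EBP-ATF response element TGATGNAA, the kind of element that ATF4 binds. Slc25a25 holds the cyclic AMP response element TGACGTCA. Its difference of changes was toward cisplatin, but its direct value of -0.25 ± 0.46 did not pass. Each sequence is the 250 bases before the gene's start in RefSeq (rat assembly GRCr8), on the gene's strand, 5′ to 3′, with the match in capitals. They lie at chr3:126795881-126796130 (plus strand) for Chac1, chr17:15193653-15193902 (minus strand) for Iars1 and chr3:36116582-36116831 (minus strand) for Slc25a25.
Chac1: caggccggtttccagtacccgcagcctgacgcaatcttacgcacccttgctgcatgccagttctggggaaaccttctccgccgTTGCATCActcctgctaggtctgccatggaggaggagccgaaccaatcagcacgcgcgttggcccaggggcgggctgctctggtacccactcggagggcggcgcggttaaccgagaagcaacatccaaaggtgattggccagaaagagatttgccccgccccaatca
Iars1: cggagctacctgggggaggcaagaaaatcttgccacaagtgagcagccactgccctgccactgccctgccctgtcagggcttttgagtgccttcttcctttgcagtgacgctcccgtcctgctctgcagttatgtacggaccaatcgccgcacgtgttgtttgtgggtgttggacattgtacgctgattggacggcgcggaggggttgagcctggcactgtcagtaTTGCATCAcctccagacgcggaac
Slc25a25: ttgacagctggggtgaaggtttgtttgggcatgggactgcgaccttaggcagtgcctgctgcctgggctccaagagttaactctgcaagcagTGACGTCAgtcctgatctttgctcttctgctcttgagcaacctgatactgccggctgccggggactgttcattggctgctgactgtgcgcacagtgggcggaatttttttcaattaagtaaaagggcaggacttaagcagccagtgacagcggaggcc

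The Chac1 match runs from base -167 to -160 and that of Iars1 from -24 to -17, counted from the start, and both read TTGCATCA, the element on the other strand. Searched on both strands, TGATGNAA was found in 2 of the 14 genes higher with mercuric chloride that had a promoter in the table, against 1.87% of 4877 promoters of genes tested on the array. It was also found in 2 of 27 genes that had fallen with mercuric chloride. The antioxidant response element TGACNNNGC was in 1 of the 14 promoters, in 1 of the 27 and in 2 of 10 promoters of the genes that had risen with cisplatin, against 12.6% of those of all genes tested. Of the printed sequences it is in Iars1 (from -183 to -175 and from -36 to -28) and in Slc25a25 (from -79 to -71), where it is left in lower case. The heat shock element and the glucocorticoid response element were in none of the promoters of the 3 patterns, against 0.349% and 0.308% of all. TGACGTCA was in 1 of those 10 promoters (in Slc25a25 from -158 to -151), against 2.77% of all. A match is a description of these letters in this window only.

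Chac1, an enzyme that degrades glutathione and a known target of ATF4, had the largest difference among the 63 genes. Its level was 0.213, 0.194 and 0.158 in normal rats 1 to 3, 11.8, 14.4 and 8.37 in the mercuric chloride rats, 0.185 and 0.199 in normal rats 11 and 12, and 0.221, 0.213 and 0.243 in the cisplatin rats. Every mercuric chloride rat thus stood far above every other rat, and the cisplatin rats lay just above their controls. Chac1 rose by 5.91 ± 0.19 (60.3-fold) with mercuric chloride, against a change of 0.23 ± 0.21 with cisplatin (adjusted p = 1 in limma). The difference was 5.68 ± 0.29, with an adjusted p of 9.37e-13 (limma), and lay between 5.50 and 5.89 with any 1 rat left out.

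The list of the integrated stress response, the pathway of Chac1, was counted as a whole. Of the 24 measured genes of this list, 4 differed, all higher with mercuric chloride (background 0.303%), and 0 were higher with cisplatin. With mercuric chloride 10 of the 24 rose (2.94% of all genes) and none fell, and with cisplatin 2 rose, Gdf15 and Ppp1r15a (0.623% of all genes). The list median of the difference was 0.32, against -0.12 over all genes.

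Mthfd2, a mitochondrial folate enzyme, was at 0.121 in normal rat 1 and at the floor of 0.1 in normal rats 2 and 3, at 0.686, 0.896 and 0.648 with mercuric chloride, at 0.120 and 0.118 in normal rats 11 and 12, and at 0.120, 0.183 and 0.182 with cisplatin. All mercuric chloride rats stood apart from the others, and 1 cisplatin rat lay at the level of its controls. The difference was 2.38 ± 0.34 (limma, adjusted p = 0.000325), a size that the floor limits.

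Cars1, the cysteinyl-tRNA synthetase, was at 1.16, 1.12 and 1.02 in normal rats 1 to 3, at 3.30, 3.02 and 3.12 with mercuric chloride, at 1.15 and 1.22 in normal rats 11 and 12, and at 1.52, 0.974 and 1.07 with cisplatin. The mercuric chloride rats stood above all others, and the cisplatin rats lay on both sides of their controls. The difference was 1.54 ± 0.22 (limma, adjusted p = 0.000353). Sars1, which charges serine tRNA, differed by 0.94 ± 0.23 and Iars1, for isoleucine, by 0.86 ± 0.18 (limma, adjusted p = 0.0413 and 0.0137, up to 0.172 and 0.114 with 1 rat left out). Sars1 lost the call without 8 of the 11 rats and Iars1 without normal rat 11.

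Since 3 synthetases were among the 18 genes, all 13 measured cytosolic aminoacyl-tRNA synthetases were then looked at, a choice made after these values were seen. Cars1, Gars1, Iars1, Sars1, Tars1 and Yars1 rose with mercuric chloride (2.94% of all genes) and none fell (5.52%). None was past the threshold with cisplatin (0.673% of all genes). The median change of the 13 was 0.29 with mercuric chloride and 0.02 with cisplatin. Hars1, Rars1, Vars1 and Kars1, for histidine, arginine, valine and lysine, changed by -0.01, 0.00, 0.05 and 0.22 with mercuric chloride and did not pass. Nor did Lars1, Wars1 and Farsb, for leucine, tryptophan and phenylalanine, with changes of 0.29, 0.18 and -0.12.

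Other known targets of ATF4 gave other values. Asns, asparagine synthetase, was at 3.03 to 3.36 in normal rats 1 to 3 and at 2.75, 3.06 and 2.59 with mercuric chloride, a change of -0.21 ± 0.10 that did not pass (limma, adjusted p = 0.228). Atf3, a stress-induced factor, was at 2.03, 2.85 and 2.34 in normal rats 1 to 3, at 36.0, 36.2 and 26.9 with mercuric chloride, at 1.60 and 1.57 in normal rats 11 and 12 and at 1.74, 13.5 and 14.6 with cisplatin. Cisplatin rat 1 lay at the level of its controls and the other 2 far above them. Atf3 rose by 3.78 ± 0.47 with mercuric chloride, and neither the difference of 1.63 ± 0.71 (limma, adjusted p = 0.363) nor the change of 2.15 ± 0.53 with cisplatin (adjusted p = 0.0672) passed. A second, dimmer Atf3 probe gave 4.24 ± 0.82 with cisplatin, which passed (limma, adjusted p = 0.00986), and a difference of 1.51 ± 1.10.

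**Figure D3:**
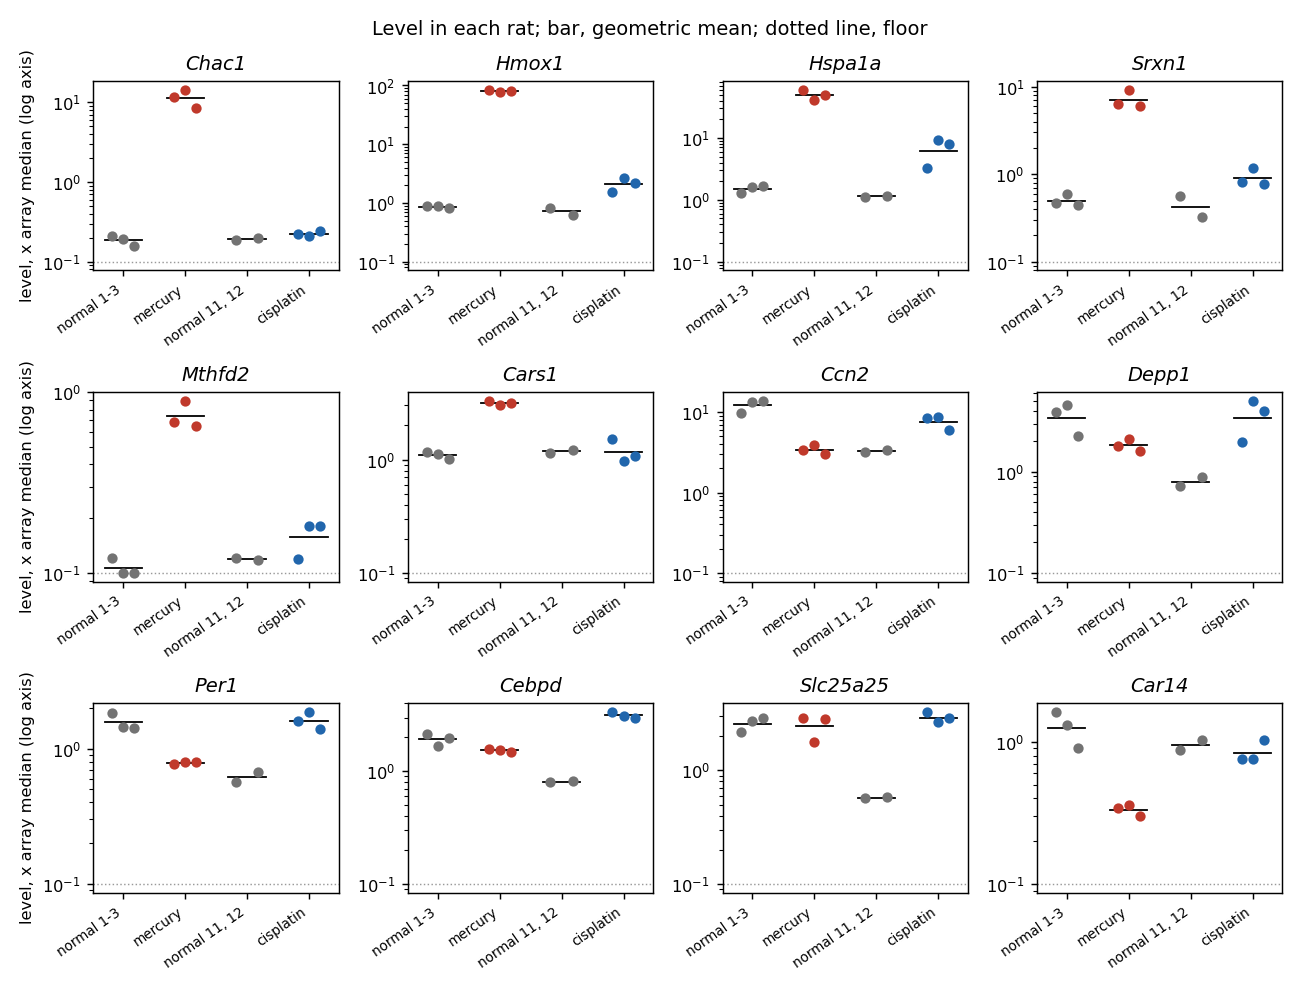
Level of 12 genes in each rat as a multiple of the array median, on log axes that differ between panels; points are rats, bars geometric means, and the dotted line the floor of 0.1. Chac1, Hmox1, Hspa1a, Srxn1, Mthfd2 and Cars1 are highest in the mercuric chloride rats. Slc25a25, Depp1, Per1, Cebpd and Ccn2 are lower in normal rats 11 and 12 than in normal rats 1 to 3.

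Hmox1, the heme oxygenase that breaks down heme and a target of Nrf2, had the largest rise with mercuric chloride of all genes tested. Its level was 0.904, 0.894 and 0.814 in normal rats 1 to 3 and 84.9, 76.3 and 81.9 with mercuric chloride, against 0.826 and 0.636 in normal rats 11 and 12 and 1.55, 2.68 and 2.17 with cisplatin. No group overlapped its controls, and the mercuric chloride rats stood far above the cisplatin rats. Hmox1 rose by 6.54 ± 0.29 (93.1-fold) with mercuric chloride and by 1.52 ± 0.33 (2.87-fold) with cisplatin, and the difference was 5.02 ± 0.44 (limma, adjusted p = 1.1e-07).

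Srxn1, which repairs oxidised peroxiredoxins, was the other member of the list of Nrf2 targets and glutathione genes that differed. Its levels were 0.474, 0.592 and 0.440 in normal rats 1 to 3, 6.38, 9.25 and 5.97 with mercuric chloride, 0.558 and 0.327 in normal rats 11 and 12 and 0.808, 1.19 and 0.775 with cisplatin. All cisplatin rats lay above their controls, but this change of 1.08 ± 0.32 did not pass (limma, adjusted p = 0.202). The difference was 2.74 ± 0.43 (limma, adjusted p = 0.000973).

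Of the 27 measured genes of that list, 2 were higher with mercuric chloride (0.303% of all genes) and 0 with cisplatin, with a median of 0.19. With mercuric chloride 5 rose, against 2.94% of all genes (Hmox1, Srxn1, Akr1b8, Txnrd1 and Osgin1), and 1, the glutathione transferase Gsta1, fell. The enzymes that make glutathione did not pass with either agent: Gclc, the catalytic subunit of its first step, changed by -0.16 ± 0.19 with mercuric chloride and 0.08 ± 0.22 with cisplatin, and Gclm, the modifier subunit, by 0.20 ± 0.15 and -0.02 ± 0.14, where normal rat 3 and mercuric chloride rat 3 had no value. Nqo1, a quinone reductase, was at 0.661 to 0.833 in normal rats 1 to 3 and at 1.21, 1.47 and 2.43 with mercuric chloride, a change of 1.15 ± 0.38 (limma, adjusted p = 0.0661). Its difference of 1.21 ± 0.58 did not pass (limma, adjusted p = 0.421).

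Hspa1a, the inducible 70 kDa heat shock protein, was the only one of 17 measured cytosolic heat shock genes that differed (background 0.303%). It was at 1.28, 1.63 and 1.64 in normal rats 1 to 3, at 60.1, 41.2 and 49.5 with mercuric chloride, at 1.13 and 1.15 in normal rats 11 and 12 and at 3.24, 9.14 and 7.97 with cisplatin. Both agents raised it in every rat, by 5.04 ± 0.35 with mercuric chloride and 2.44 ± 0.39 with cisplatin, and cisplatin rat 1 was the lowest of the treated rats. The difference was 2.61 ± 0.52 (limma, adjusted p = 0.00992, and 0.0736 without normal rat 12). Hspa8, the constitutive relative of Hspa1a, and Stip1, which joins chaperones, rose by 0.68 ± 0.20 and 0.60 ± 0.15 with mercuric chloride without a difference past the threshold.

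The chaperones of the endoplasmic reticulum, 20 genes measured, held 0 genes that differed. The chaperone Hspa5 rose by 0.73 ± 0.18 with mercuric chloride and Dnajb9, a cochaperone, rose by 1.16 ± 0.24 with mercuric chloride and 1.26 ± 0.26 with cisplatin. Uggt1, a folding sensor of that compartment outside the list, differed by 1.47 ± 0.30 (limma, adjusted p = 0.0133). It had been 1.40, 0.865 and 1.13 in normal rats 1 to 3, 1.94, 2.61 and 1.73 with mercuric chloride, 1.37 and 1.17 in normal rats 11 and 12 and 1.07, 0.723 and 0.791 with cisplatin. The cisplatin rats lay below their controls here, by -0.58 ± 0.22, which did not pass. Without normal rat 11 the adjusted p of the Uggt1 difference was 0.0924.

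Mt1, a metallothionein that binds heavy metals, showed no difference past the threshold. Mt1 was at 127, 77.2 and 87.1 in normal rats 1 to 3, at 118, 96.0 and 121 with mercuric chloride, at 62.2 and 48.4 in normal rats 11 and 12 and at 108, 70.7 and 87.0 with cisplatin. Mercuric chloride rats overlapped their controls, and every cisplatin rat lay above both of its controls. The difference of -0.44 ± 0.40 did not pass (limma, adjusted p = 0.694). Directly its sign turned, to 0.35 ± 0.30. Of 13 measured genes of metal handling 0 differed. Slc31a1, the copper transporter that can also carry cisplatin, fell by 0.77 ± 0.16 with mercuric chloride and changed by -0.11 ± 0.18 with cisplatin. Fth1, ferritin heavy chain, was at 1.61 and 2.69 in cisplatin rats 1 and 3 but at 34.7 in cisplatin rat 2, and at 23.2 to 66.2 in the other rats compared, so that its difference of 3.91 ± 2.27 was far from the threshold.

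Il1b, a cytokine of inflammation, was the only one of 25 measured cytokine, chemokine and adhesion genes that differed (background 0.303%). Its level was 0.158, 0.135 and 0.279 in normal rats 1 to 3, 0.645, 0.677 and 0.671 with mercuric chloride, 0.237 and 0.226 in normal rats 11 and 12 and 0.188, 0.221 and 0.252 with cisplatin. Levels with mercuric chloride lay close together, above all others. The difference was 1.95 ± 0.41 (limma, adjusted p = 0.0142, and up to 0.0794 with 1 rat left out, lost without normal rat 2, 11 or 12). The chemokines Ccl2 and Cxcl1 had differences of 1.00 ± 0.96 and 0.92 ± 0.70 that did not pass.

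Dbp, a clock output factor, shows how far a difference can rest on the controls. It was at 4.96, 4.58 and 4.07 in normal rats 1 to 3, at 12.7, 11.0 and 9.93 with mercuric chloride, at 11.3 and 17.8 in normal rats 11 and 12 and at 12.5, 10.4 and 10.7 with cisplatin. The treated rats of both groups overlapped, and only the normal rats differed, by 1.65 ± 0.24 (limma, adjusted p = 3.96e-05). The difference of changes was likewise 1.65 ± 0.32 (limma, adjusted p = 0.00671), while the direct value was 0.00 ± 0.36 with its sign turned.

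Chd7, a chromatin remodeller, differed by 1.89 ± 0.43, Shb, an adaptor of receptor signalling, by 1.37 ± 0.31 and Rassf5, a Ras effector, by 1.15 ± 0.27. With mercuric chloride rats and normal rats paired by number, the adjusted p of Rassf5 was 0.0527 (limma). Chd7 was at 0.968, 1.11 and 0.959 with mercuric chloride and between 0.137 and 0.263 in all other rats compared. Its adjusted p in limma was 0.0256, and up to 0.190 with 1 rat left out (7 of 11 rats). The remaining genes higher with mercuric chloride were Tardbp, an RNA-binding protein (1.07 ± 0.17), Igf2bp2 (0.98 ± 0.21), Mef2d (0.99 ± 0.21) and Tmem131l (0.98 ± 0.21). Second probes of Mef2d and Tmem131l gave -0.19 ± 0.25 and 0.25 ± 0.32, which did not pass. Of the 18 genes, 6 stayed past with any 1 of the 11 rats left out: Chac1, Hmox1, Srxn1, Mthfd2, Cars1 and Tardbp.

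Among the genes higher with cisplatin, immediate early and feedback genes were 4 of the 27 measured on that list (background 0.757%), with 0 higher with mercuric chloride. These were Ccn2, Zfp36, Dusp6 and Klf10. Cisplatin raised 8 genes of the list (0.623% of all genes) and lowered 0, and mercuric chloride raised 6 (2.94%) and lowered 1 (5.52%). Normal rats 11 and 12 were lower than normal rats 1 to 3 in 8 (3.45%) and higher in 0. The list's median difference was -0.49, and its median in the controls was -0.35. The part of the controls in these counts was not tested beyond the direct values given with each gene.

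The cisplatin rats were uneven in this list. The median change of the 27 genes was 0.34 in cisplatin rat 1, 1.41 in rat 2 and 1.08 in rat 3, and 4, 17 and 15 of them were above 1 in the same order. The mercuric chloride rats had medians of 0.36, 0.29 and 0.09. Fos, for example, was at 0.866 in cisplatin rat 1 and at 12.5 and 8.02 in rats 2 and 3, against 0.459 and 0.224 in their controls. Fos rose with cisplatin by 3.79 ± 0.78, and its difference of -2.68 ± 1.05 did not pass (limma, adjusted p = 0.292) and was -0.89 ± 0.75 directly. Without cisplatin rat 1 the difference between the agents passed in 151 probes, and without cisplatin rat 2 in 54.

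**Figure D4:**
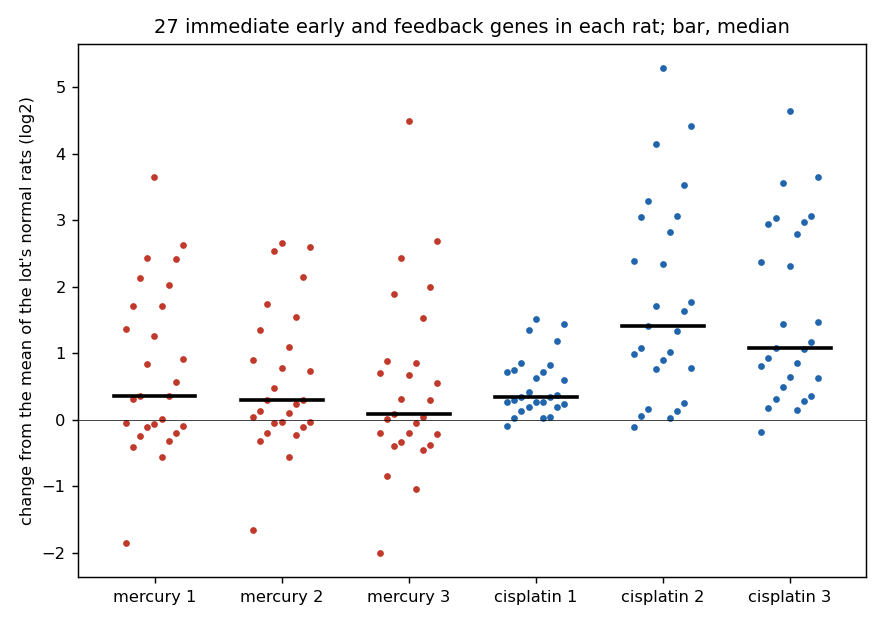
Change of 27 immediate early and feedback genes in each treated rat from the mean of its normal rats (log2); points are genes and bars medians. Cisplatin rats 2 and 3 have medians of 1.41 and 1.08, cisplatin rat 1 of 0.34, and the mercuric chloride rats between 0.09 and 0.36.

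Ccn2, a matricellular growth factor, had the largest difference toward cisplatin among the 63 genes. It was at 9.62, 13.4 and 13.8 in normal rats 1 to 3, at 3.35, 3.86 and 3.04 with mercuric chloride, at 3.21 and 3.35 in normal rats 11 and 12 and at 8.35, 8.71 and 5.94 with cisplatin. The mercuric chloride rats were thus level with the controls of cisplatin and the cisplatin rats stood between. Ccn2 fell by 1.84 ± 0.28 with mercuric chloride and changed by 1.20 ± 0.31 with cisplatin, and the difference was -3.04 ± 0.41 (limma, adjusted p = 0.000212). The direct value was -1.15 ± 0.43 (limma, adjusted p = 0.0503).

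Zfp36, which destabilises cytokine mRNA, rose with cisplatin by 2.44 ± 0.36 and changed by 0.48 ± 0.32 with mercuric chloride. It was at 4.15, 5.47 and 4.67 in normal rats 1 to 3, 8.50, 5.79 and 5.85 with mercuric chloride, 1.80 and 1.69 in normal rats 11 and 12 and 5.00, 12.4 and 13.8 with cisplatin. The treated groups overlapped in level, and only the changes were apart. Its difference of -1.96 ± 0.48 (limma, adjusted p = 0.043) was -0.52 ± 0.40 directly and held with 2 of the 11 rats left out in turn. With mercuric chloride rats and normal rats paired by number its adjusted p was 0.059 (limma). Dusp6, a phosphatase that limits ERK signalling, differed by -1.92 ± 0.42 and by -0.63 ± 0.36 directly, with losses without 6 of the 11 rats (adjusted p up to 0.125).

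Klf10, an early zinc finger factor, had a direct value close to its difference of changes. It was at 0.378, 0.318 and 0.361 in normal rats 1 to 3, at 0.452, 0.412 and 0.355 with mercuric chloride, at 0.421 and 0.375 in normal rats 11 and 12 and at 0.898, 1.24 and 1.10 with cisplatin. Every cisplatin rat stood above every other rat, cisplatin rat 1 included. Klf10 rose by 1.43 ± 0.18 with cisplatin, the difference was -1.23 ± 0.24 (limma, adjusted p = 0.0082, and 0.0855 without normal rat 12), and the direct value was -1.40 ± 0.16.

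Glucocorticoid responsive genes were higher with cisplatin in 3 of 15 measured (0.757% of all genes) and higher with mercuric chloride in 0 (0.303%), and 4 rose with cisplatin (0.623%). Normal rats 11 and 12 were lower than normal rats 1 to 3 in 2 of the 15 (3.45%) and higher in 0. The list's median difference was -0.28, and its median in the controls was -0.32. Tsc22d3, an anti-inflammatory target of the glucocorticoid receptor, was at 1.09, 1.61 and 1.60 in normal rats 1 to 3, 1.71, 1.13 and 1.00 with mercuric chloride, 1.18 and 0.979 in normal rats 11 and 12 and 2.58, 3.39 and 3.38 with cisplatin. The cisplatin rats stood above all others. The difference was -1.71 ± 0.33 (limma, adjusted p = 0.00654, and 0.0794 without normal rat 12), and -1.31 ± 0.22 directly.

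Cebpd, a transcription factor of the acute phase response, was at 2.16, 1.69 and 1.96 in normal rats 1 to 3, 1.57, 1.55 and 1.48 with mercuric chloride, 0.804 and 0.817 in normal rats 11 and 12 and 3.37, 3.11 and 2.97 with cisplatin. The cisplatin rats were the highest and their controls the lowest. The difference was -2.29 ± 0.43 (limma, adjusted p = 0.00576) and the direct value -1.04 ± 0.35, which passed.

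Per1, the third of this list and also a core gene of the clock, went opposite ways. It was at 1.83, 1.45 and 1.43 in normal rats 1 to 3, 0.765, 0.796 and 0.793 with mercuric chloride, 0.569 and 0.673 in normal rats 11 and 12 and 1.60, 1.86 and 1.38 with cisplatin. Mercuric chloride rats lay below their controls and cisplatin rats above theirs, at about the level of normal rats 1 to 3. Per1 fell by 0.99 ± 0.22 and rose by 1.37 ± 0.25, a difference of -2.36 ± 0.34 (limma, adjusted p = 0.000325) and of -1.03 ± 0.32 directly. Nr1d2 and Bhlhe41, other clock genes, rose with mercuric chloride by 1.10 ± 0.30 and 1.20 ± 0.21, and their differences did not pass.

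Tob2, an antiproliferative protein that acts on mRNA decay, went the same opposite ways, and its 2 sets of normal rats overlapped in level. It was at 0.679, 0.540 and 0.534 in normal rats 1 to 3, 0.375, 0.360 and 0.341 with mercuric chloride, 0.455 and 0.548 in normal rats 11 and 12 and 1.21, 1.36 and 0.983 with cisplatin. The treated groups lay on opposite sides of all normal rats. The difference was -1.93 ± 0.26 (limma, adjusted p = 0.000175), and it was -1.71 ± 0.17 directly.

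Slc25a25, a mitochondrial carrier of ATP-magnesium and phosphate whose promoter is printed above, moved little between the treated groups. Its level was 0.568 and 0.583 in normal rats 11 and 12 and 3.27, 2.64 and 2.87 with cisplatin, against 2.15, 2.74 and 2.90 in normal rats 1 to 3 and 2.88, 1.78 and 2.84 with mercuric chloride. Normal rats 11 and 12 alone were low. The difference was -2.42 ± 0.39 (limma, adjusted p = 0.00108), and the direct value was -0.25 ± 0.46. Depp1, a regulator of autophagy, differed 8.02-fold toward cisplatin (limma, 95% interval -4.31 to -1.69 on the log2 scale, adjusted p = 0.0157) and a direct value of -0.90 ± 0.56, and lost the call without normal rat 2, 11 or 12 or cisplatin rat 2 (adjusted p up to 0.0992).

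Targets of p53 and DNA damage genes, 25 measured, held 0 genes that differed. With cisplatin 3 rose, namely Cdkn1a, Btg2 and Gadd45a, and Sesn1 fell, against 0.623% and 0.0505% of all genes. Cdkn1a, the cell cycle inhibitor p21, was at 2.51, 2.08 and 1.25 in normal rats 1 to 3, 3.82, 4.34 and 2.34 with mercuric chloride, 0.991 and 0.660 in normal rats 11 and 12 and 2.82, 5.15 and 6.85 with cisplatin. The treated rats lay above all normal rats except mercuric chloride rat 3. It rose by 2.52 ± 0.39 with cisplatin, against 0.86 ± 0.35 with mercuric chloride (limma, adjusted p = 0.138), and the difference of -1.66 ± 0.52 did not pass (adjusted p = 0.163) and was -0.45 ± 0.40 directly. Sesn1, a sestrin, fell with both agents, by 0.45 ± 0.12 with mercuric chloride and by 0.60 ± 0.14 with cisplatin, and Ccng1, cyclin G1, had a difference of -0.85 ± 0.35 that did not pass.

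The largest of the 3 patterns, 33 genes, had fallen with mercuric chloride while cisplatin gave no call. The difference passed in 20 of the 33 without normal rat 1 and in 10 without normal rat 12. Of 37 measured proximal tubule genes, 12 fell with mercuric chloride (background 5.52%) and 1 rose, while with cisplatin 0 passed in either direction. The difference itself passed in 3 of the 37 (background 0.757%), all lower with mercuric chloride: Car14, Gatm and Slc7a9. The list's median difference was -0.35, against -0.12 over all genes, and the whole list's summed level, given above, was lowest with mercuric chloride. The summed level of all named genes was 24673 to 29394 in normal rats 1 to 3 and 24122 to 24762 with mercuric chloride. It was 24147 to 24243 in normal rats 11 and 12 and 24478 to 25567 with cisplatin. How far the list's summed level and these falls share a cause was not tested.

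Car14, a membrane carbonic anhydrase of the tubule, was at 1.62, 1.31 and 0.909 in normal rats 1 to 3, 0.344, 0.358 and 0.300 with mercuric chloride, 0.869 and 1.03 in normal rats 11 and 12 and 0.754, 0.761 and 1.03 with cisplatin. The mercuric chloride rats were below all others and the cisplatin rats overlapped their controls. It fell by 1.91 ± 0.20 with mercuric chloride (3.75-fold), and the difference was -1.73 ± 0.31 (limma, adjusted p = 0.0033).

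Gatm, the first enzyme of creatine synthesis, was at 78.9, 58.8 and 63.8 in normal rats 1 to 3, 25.0, 34.8 and 23.0 with mercuric chloride, 56.4 and 63.3 in normal rats 11 and 12 and 70.8, 55.7 and 59.5 with cisplatin. Here too only the mercuric chloride rats were low. The difference was -1.34 ± 0.27 (limma, adjusted p = 0.0109, and 0.0739 without normal rat 11), though a dimmer second probe gave -0.50 ± 0.27, which did not pass. Slc7a9, a carrier of cystine and basic amino acids, fell by 1.17 ± 0.15 with mercuric chloride and differed by -0.92 ± 0.23 (limma, adjusted p = 0.0487, up to 0.267 with 1 rat left out and lost without 9 of the 11), or -0.52 ± 0.17 directly.

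The other proximal tubule genes that fell with mercuric chloride included the amino acid carrier Slc7a7 (by 1.17 ± 0.24), the dicarboxylate carrier Slc13a2 (by 0.80 ± 0.14) and the carnitine carrier Slc22a5 (by 0.82 ± 0.21), with differences that did not pass. Slc17a1, a phosphate and urate carrier, rose by 1.19 ± 0.20. The drug carriers Slc22a2 and Slc22a6, which take up organic cations and anions, had differences of 0.43 ± 0.20 and -0.18 ± 0.33 that did not pass. Of 28 measured genes of fatty acid oxidation 4 fell with mercuric chloride (5.52% of all genes), 0 passed with cisplatin and 0 differed.

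Slc16a6, a monocarboxylate transporter, fell by 1.91 ± 0.22 with mercuric chloride and changed by 0.15 ± 0.25 with cisplatin. It was at 2.11, 1.75 and 1.44 in normal rats 1 to 3, 0.510, 0.493 and 0.401 with mercuric chloride, 1.32 in both normal rats 11 and 12 and 1.99, 1.20 and 1.32 with cisplatin. Here again the mercuric chloride rats were below all others. The difference was -2.05 ± 0.33 (limma, adjusted p = 0.00104), and -1.65 ± 0.23 directly.

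Trib1, a pseudokinase that steers protein degradation, fell by 1.30 ± 0.20 with mercuric chloride and changed by 0.68 ± 0.22 with cisplatin. It was at 0.943, 1.05 and 0.861 in normal rats 1 to 3, 0.458, 0.388 and 0.320 with mercuric chloride, 0.883 and 0.722 in normal rats 11 and 12 and 1.12, 1.49 and 1.26 with cisplatin. Again the treated groups lay on opposite sides of the normal rats. The difference was -1.98 ± 0.29 (limma, adjusted p = 0.00045).

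Several further genes of this pattern belong to tubule or secreted proteins. Slc26a4, the anion exchanger pendrin of the collecting duct, differed by -1.55 ± 0.35 and was at 0.594, 0.832 and 0.509 with mercuric chloride against 1.10 to 1.83 in normal rats 1 to 3. It lost the call without 7 of the 11 rats (adjusted p up to 0.123). Klk1b3, a kallikrein, differed by -1.67 ± 0.26, Fads1, a fatty acid desaturase, by -1.69 ± 0.30, Apcs, a pentraxin, by -1.69 ± 0.28 and Hsd17b2, which inactivates sex steroids, by -1.55 ± 0.28. Directly, Klk1b3 gave -1.08 ± 0.20, Fads1 -1.09 ± 0.22 and Apcs -1.05 ± 0.22. In all 4 genes every mercuric chloride rat lay below every normal rat, and the cisplatin changes lay between -0.16 (Hsd17b2) and 0.27 (Klk1b3). Without normal rat 12 the adjusted p of Hsd17b2 was 0.0768.

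The other 22 genes that had fallen with mercuric chloride alone had differences between -1.51 ± 0.32 (Tsx) and -0.61 ± 0.15 (Naaladl1). Among them Ctsc, the protease cathepsin C, differed by -1.02 ± 0.23 (-0.67 ± 0.16 directly) and by -0.96 ± 0.20 on a second probe, and Rxrg, a retinoid receptor, differed by -0.97 ± 0.21, with both of its other probes past the threshold as well. Krt7, a keratin of the collecting system, was at 27.2 to 35.4 in normal rats 1 to 3, 16.9, 18.1 and 15.6 with mercuric chloride, 29.8 and 30.5 in normal rats 11 and 12 and 25.8, 33.3 and 32.6 with cisplatin. Only the mercuric chloride rats were low, and the difference was -0.86 ± 0.18, or -0.85 ± 0.12 directly. Rin2 and Ipmk, in contrast, differed by -1.24 ± 0.28 and -0.89 ± 0.22 but by 0.01 ± 0.29 and -0.04 ± 0.21 directly. Paired by number, Ipmk, Fn3k, Chad, Mmp11 and Naaladl1 lost the call, with adjusted p between 0.0561 (Ipmk) and 0.0633 (Mmp11) in limma. Ccn2, Slc16a6, Trib1, Car14, Fads1, Apcs, Klk1b3, Insyn1 and Zfp354a are the 9 of the 33 genes that stayed past with any 1 rat left out, and Per1, Tob2, Cebpd, Slc25a25 and Ckm the 5 of the 12 that had risen with cisplatin. Zfp354a differed by -1.50 ± 0.28 and Insyn1 by -1.20 ± 0.18. Directly they gave -0.56 ± 0.25 (limma, adjusted p = 0.0979) and -0.58 ± 0.16. Normal rats 11 and 12 differed from normal rats 1 to 3 by -0.93 ± 0.21 in Zfp354a and -0.62 ± 0.14 in Insyn1. Ctsc, Rxrg, Krt7, Rin2, Ipmk, Fn3k, Chad, Mmp11, Tsx, Naaladl1, Insyn1, Zfp354a and Ckm were chosen for mention after their values were seen.

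**Figure D5:**
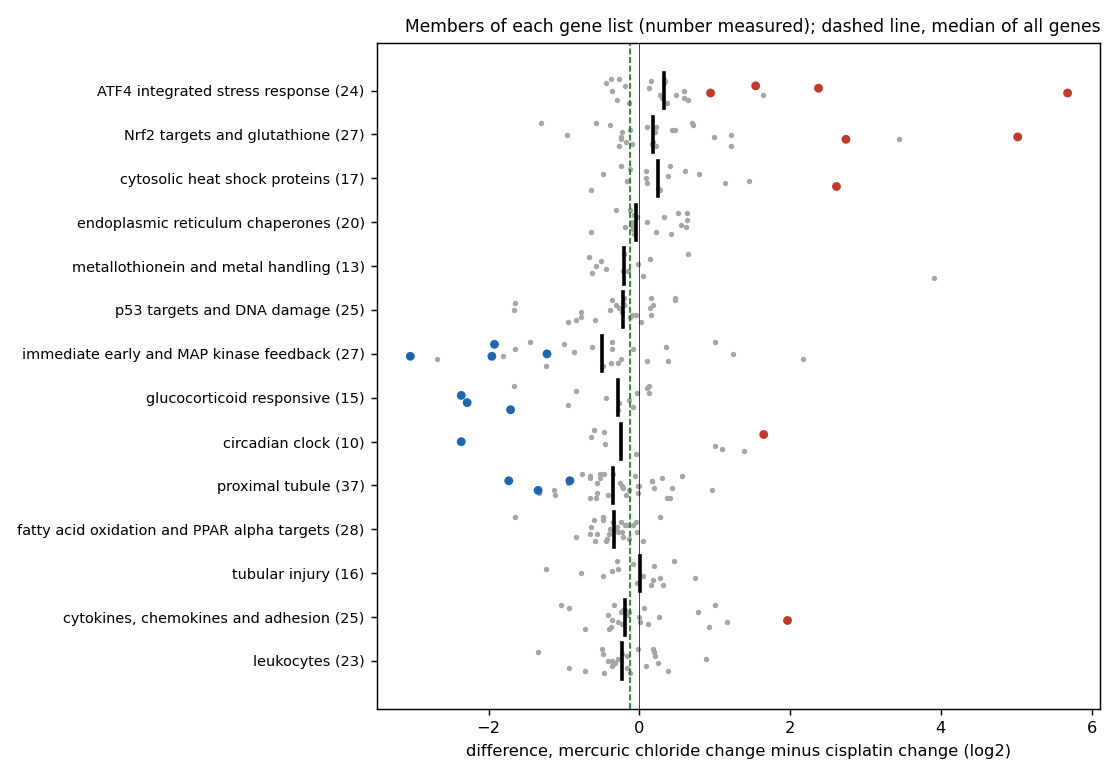
Difference of the agents (mercuric chloride change minus cisplatin change, log2) for each measured gene of 14 lists, with the number measured beside the name. Coloured points passed the test (red, higher with mercuric chloride; blue, higher with cisplatin), black bars are list medians and the green dashed line is the median of all genes, -0.12. Red points lie in the stress response, Nrf2, heat shock, clock and cytokine lists, and blue points in the immediate early, glucocorticoid, clock and proximal tubule lists. Slc26a4, the gene past the test in the distal nephron list, is not drawn.

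Not all changes set the agents apart. Of all genes, 18 passed with both agents, which is 3.58% of the genes changed by mercuric chloride and 45% of those changed by cisplatin. Of these, 14 rose with both, 2 fell with both and 2 went opposite ways. Dusp8, a phosphatase that limits JNK signalling, was at 0.386, 0.341 and 0.406 in normal rats 1 to 3, 1.65, 2.29 and 1.98 with mercuric chloride, 0.373 and 0.327 in normal rats 11 and 12 and 1.05, 1.21 and 0.892 with cisplatin. Every treated rat exceeded every normal rat. It rose by 2.38 ± 0.18 and by 1.58 ± 0.21, and the difference of 0.80 ± 0.28 did not pass (limma, adjusted p = 0.216), with a 95% interval of 0.23 to 1.37.

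Tnfrsf12a, the receptor of the cytokine TWEAK, rose by 2.37 ± 0.34 with mercuric chloride and 2.07 ± 0.38 with cisplatin. It was at 1.33 to 2.41 in normal rats 1 to 3, 9.52, 10.4 and 6.95 with mercuric chloride, 1.75 and 1.43 in normal rats 11 and 12 and 3.12, 9.89 and 9.51 with cisplatin. Cisplatin rat 1 was again the lowest treated rat. The difference was 0.31 ± 0.51 with an interval of -0.75 to 1.37.

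Klf6, an early zinc finger factor, rose by 2.26 ± 0.43 and 2.15 ± 0.48, and Ier2, an early response gene, by 1.60 ± 0.42 and 2.09 ± 0.47. In cisplatin rat 1 Klf6 was at 1.58 and Ier2 at 0.959, against 11.9 and 6.60 in rat 2 and 8.44 and 6.16 in rat 3. Their differences of 0.11 ± 0.64 and -0.49 ± 0.64 had intervals of -1.22 to 1.43 and -1.80 to 0.82, wide enough to hold a 2-fold difference either way for Klf6. Directly both turned their sign, to -0.17 ± 0.42 for Klf6 and 0.30 ± 0.44 for Ier2. Crem, a factor of cyclic AMP signalling, rose by 1.43 ± 0.18 and 1.22 ± 0.21, with a difference of 0.21 ± 0.28. Ntf3, a neurotrophin, fell by 1.86 ± 0.26 and by 1.26 ± 0.29.

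Markers of tubular injury showed no difference past the threshold at this time. Of 16 genes measured 0 differed, against 1.06% of all genes, a share too low for this count to set the list apart. With each agent 1 of the 16 rose (2.94% of all genes with mercuric chloride and 0.623% with cisplatin) and 0 fell. Havcr1, the injury marker KIM-1, was at 0.411, 0.887 and 1.38 in normal rats 1 to 3, 0.676, 0.621 and 1.20 with mercuric chloride, 0.823 and 0.901 in normal rats 11 and 12 and 0.691, 0.928 and 1.07 with cisplatin. All groups overlapped. Its difference was -0.03 ± 0.61, that of Lcn2, the injury marker NGAL, -0.08 ± 0.35 and that of Clu, clusterin, 0.19 ± 0.49.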

How the data were processed

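The authors hybridised kidney RNA of each rat to CodeLink arrays with the standard protocol, per the labels' protocols; scanner and software were not given in the sources used here. Each deposited value read as 2 raised to the power of a linear value centred on about 1: 99.9% of log2 values under 40 were whole multiples of 0.0001, and log2 array medians lay between 0.9987 and 1. Log2 of the deposited value was therefore used as the intensity in units of the array median (highest 323), and deposited values of 0.5 as missing (0.969% of all). Sham rat 3, used only for the spread, was moved by 2 lines to match the other arrays.

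Values were divided by the array median, floored at 0.1 and put on the log2 scale, duplicate arrays of a rat were averaged, and limma 3.58.1 in R 4.3.3 was fitted to all 31 rats (21 residual degrees of freedom), with Benjamini-Hochberg adjustment over 9039 probes measured in at least 2 rats of each group and above the floor in at least 3 of those compared. Of 9911 probes, 7229 had 1 gene symbol, 21 several and 2661 none here. Genes were named by the size of a difference past the threshold, by list or from a set of known stress genes, and others are said to be chosen after their values were seen. Members and lists were chosen with earlier results of these data known. Labels give separate rats, so p-values measure the spread between rats. Mercuric chloride rats and normal rats of the same number deviated together (correlations 0.135, 0.319 and 0.456), each over 0.1, while same-numbered rats of the other group pairs did not in every pair (-0.102 to 0.174); a block for the mercuric chloride pairs changed no count by over 1.5 times. The number of arrays limits the precision. The test was checked on simulated data.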

Additional observations from a re-analysis of the deposited data

Results flagged for a closer look

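Per1 and Tob2 moved in opposite directions with the agents, every mercuric chloride rat below the mean of its normal rats and every cisplatin rat above that of its own. The test of the difference itself gave -2.36 for Per1 and -1.93 for Tob2 on the log2 scale (limma, adjusted p = 0.000325 and 0.000175). Directly the values were -1.03 ± 0.32 and -1.71 ± 0.17. Normal rats 11 and 12 differed from normal rats 1 to 3 by -1.33 ± 0.25 in Per1 and by -0.22 ± 0.19 in Tob2 (limma, adjusted p = 0.00125 and 0.621).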

How the results depend on the processing

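The count of 88 probes for the difference between the agents became 136 with quantile normalization, 2202 when treated rats were compared directly, 6 with sham rat 3 in its deposited order and 259 without the 3 arrays that stood apart (chosen after seeing the data), and lay between 30 (without normal rat 12) and 151 (without cisplatin rat 1) with 1 rat left out. It was 52 without mercuric chloride rat 3, 54 without cisplatin rat 2, and 56 without normal rat 2 or normal rat 11. For cisplatin against its controls, 55 became 18 with only the 4 groups compared, 509 against all normal rats, 7 with sham rat 3 as deposited and 104 without those arrays, between 13 (without normal rat 12) and 139 (without cisplatin rat 1), with 16 and 29 without cisplatin rats 2 and 3 and 34 without normal rat 11. For mercuric chloride, 722 became 61 with sham rat 3 as deposited and 370 to 800 with 1 rat left out (lowest without mercuric chloride rat 1; 420 without rat 3, 460 and 461 without normal rats 1 and 2). For the 2 sets of normal rats, 581 became 55 and 1147 under the same 2 settings, and 184 to 628 with 1 rat left out (184 without normal rat 12, 237 without normal rat 11). List members past the difference, 20, became 113, 4 and 31 in the direct comparison, with sham rat 3 as deposited and without those arrays, and 10 to 30 with 1 rat left out (10 without normal rat 12). Directly, Dbp turned to -0.0018 and Rin2 to 0.013. With the replicate number as a block the counts were 83, 54, 696, 585 and 19, and with only the pairs of mercuric chloride and normal rats 84, 48, 716, 456 and 19. That pairing ended the call of Rassf5, Zfp36, Ipmk, Fn3k, Chad, Mmp11 and Naaladl1 and of no other of the 63 genes. Why the counts moved was not tested.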
